A study of Mus musculus with 10 samples.

Results

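Stefins and clade B serpins are 2 families of protease inhibitor that epidermal cells keep in the cytoplasm. Of the 32285 genes listed in the longer of the 2 gene lists of the series, 8 are described here: the stefins Stfa1, Stfa3 and Csta3, and the serpins Serpinb2, Serpinb3a, Serpinb3b, Serpinb5 and Serpinb6c. They were selected on their own measured values, namely UMIs (unique molecular identifiers, each standing for a captured RNA molecule) per 1000000 UMIs of the cells, here called CPM, and shares of positive cells in keratinocytes. Their differences between layers and between groups are therefore given as a description, with no p-value and no call. Single cells of embryonic back skin were profiled in 10 libraries from mice of mixed C57Bl/6J and CD-1 background. At E15.5 there were 2 control embryos (replicates 2 and 3) and 2 MOF cKO embryos (replicates 5 and 6), and E16.5 skin gave libraries of replicates 1 and 2 of each genotype. E17.5 skin gave 1 library of control and 1 of QPC cKO. In MOF cKO skin the floxed gene was Mof (symbol Kat8), which encodes an acetyltransferase of histone H4, and in QPC cKO skin it was Uqcrq, which encodes a subunit of respiratory complex III. Both were deleted by Krt14-Cre, which is active in epithelial cells of the skin and not in dermal cells. By the study's own staining, deletion was mosaic in the epidermis of E15.5 MOF cKO replicate 6 and homogeneous in replicate 5.

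A stefin is a small cystatin without a signal peptide, and it blocks papain-like cysteine proteases such as cathepsins B, H, L and S by filling the active site. Rodents carry a cluster of stefin A genes, several of which are also used by neutrophils. A clade B serpin offers a reactive loop to a serine or cysteine protease and traps the enzyme when the loop is cut. Serpinb2 is plasminogen activator inhibitor 2, the Serpinb3 genes are the mouse relatives of the human squamous cell carcinoma antigens, and Serpinb5 (maspin) is an epithelial serpin that does not inhibit proteases in the usual way. Keratinocytes leave the basal layer, where Krt5 and Krt14 are made, for the suprabasal layers, where Krt1 and Krt10 replace them.

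The members lie in 3 gene clusters of the GRCm38 assembly. Csta3 (chr16:36210403-36217788, plus strand), Stfa1 (chr16:36276951-36285373, plus strand) and Stfa3 (chr16:36450537-36455392, minus strand) sit within 245 kb that hold 7 protein-coding genes. Serpinb5 (chr1:106861173-106883348, plus strand), Serpinb3a (chr1:107045587-107052303, minus strand), Serpinb3b (chr1:107153940-107278361, minus strand) and Serpinb2 (chr1:107511423-107535478, plus strand) sit within 674 kb that hold 10. Serpinb6c (chr13:33879816-33905708, minus strand) lies apart. The coding sequences run from 294 bases for Csta3 to 1248 bases for Serpinb2. Coding sequences were aligned end to end, with gaps counted as differences. Serpinb3a and Serpinb3b are the closest relatives, with 92.8% of alignment positions identical. Stfa3 and Csta3 had 80.1%, Stfa1 and Csta3 67.3% and Stfa1 and Stfa3 62.3%. Stfa1 has 387 coding bases against 312 for Stfa3 and 294 for Csta3, and this gap lowers its values. They therefore do not order the stefins by likeness. Of windows of 90 bases from the last 500 bases of the Stfa1 transcripts, where the 3' reads fall, 7.76% also occurred in another stefin gene, BC100530. For Serpinb2 18.7% occurred in Serpinb10, which overlaps it, and for the other 6 members none did, so reads of Serpinb3a and Serpinb3b could be told apart despite their likeness.

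The stretches before the start sites are shown because members of a cluster have parts of them in common, and they come from RefSeq on GRCm38.p6, written 5' to 3' on the strand of the gene. Position -1 is the last base before the start. Before the 3 stefin starts the longest stretch in common was 16 bases, shown in capitals, which occurred in the promoters of 6 genes in all (Csta3, Cstdc3, Cstdc5, Gm7260, Stfa1 and Stfa3). It lay at -144 to -129 in Stfa1, at -146 to -131 in Stfa3 and at -191 to -176 in Csta3. For Stfa1 only the 30 bases around it are printed, since a longer annotated transcript begins before it. For Serpinb3a and Serpinb3b the capitals mark a shared stretch of 41 bases, found before no other gene in the table, at -160 to -120 and at -136 to -96. Both stretches were chosen after the sequences were seen.
Stfa1, within chr16:36276898-36277147 (plus strand): cccaactCCACTCAGCATTTCCTgtaatgg
Stfa3, chr16:36455393-36455642 (minus strand): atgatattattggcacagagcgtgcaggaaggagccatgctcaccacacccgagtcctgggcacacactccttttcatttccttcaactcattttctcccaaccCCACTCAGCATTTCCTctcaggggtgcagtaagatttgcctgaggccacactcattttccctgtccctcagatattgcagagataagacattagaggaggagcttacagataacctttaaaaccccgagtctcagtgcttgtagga
Csta3, chr16:36210153-36210402 (plus strand): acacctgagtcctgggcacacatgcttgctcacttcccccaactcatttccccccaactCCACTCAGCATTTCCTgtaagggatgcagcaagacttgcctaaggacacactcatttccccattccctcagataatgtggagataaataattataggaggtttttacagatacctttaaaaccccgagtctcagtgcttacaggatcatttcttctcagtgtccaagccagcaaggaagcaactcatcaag
Serpinb3a, chr1:107052304-107052553 (minus strand): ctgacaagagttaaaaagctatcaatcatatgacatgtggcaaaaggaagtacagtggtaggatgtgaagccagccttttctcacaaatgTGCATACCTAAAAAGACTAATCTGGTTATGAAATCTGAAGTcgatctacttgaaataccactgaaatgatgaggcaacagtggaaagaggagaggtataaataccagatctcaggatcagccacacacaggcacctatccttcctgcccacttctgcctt
Serpinb3b, chr1:107161115-107161364 (minus strand): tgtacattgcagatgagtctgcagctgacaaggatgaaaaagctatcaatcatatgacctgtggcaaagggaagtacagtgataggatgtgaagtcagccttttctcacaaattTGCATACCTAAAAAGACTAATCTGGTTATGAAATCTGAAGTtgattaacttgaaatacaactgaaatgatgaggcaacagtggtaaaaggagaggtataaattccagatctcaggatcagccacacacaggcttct
The 250 bases before the start were aligned end to end, with gaps counted as differences. Stfa1 and Stfa3 were 83.5% identical and Serpinb3a and Serpinb3b 77.0%. Csta3 was 61.1% identical to Stfa1 and 58.6% to Stfa3 by this measure. The shared stretch lay further from the start in Csta3, so its window was shifted and unmatched ends lowered these values. They therefore do not order the stefins by likeness. Searched on both strands, the AP-1 letters TGANTCA occurred before Serpinb2 and Serpinb5 (position -140), and in 6.75% of 32851 promoters of this length. Serpinb2 has 2 RefSeq starts, and the same site lies at -94 from the first and at -181 from the second. The letters TATAAA occurred before Serpinb2, Serpinb3a and Serpinb3b, and in 12.4% of promoters. Neither was found in the windows of the 3 stefins or Serpinb6c. The RefSeq starts used for Serpinb3b and Serpinb6c, and the second start of Serpinb2, lie inside the gene spans given above. Their windows therefore do not precede every annotated transcript.

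Cells were kept by the limits of the study, which left 716 to 10653 cells per library. The basal gate took kept cells with at least 10 UMIs of Krt5 and Krt14 together and under 10 of Krt1 and Krt10, and the suprabasal gate took those with at least 20 UMIs of Krt1 and Krt10. The gates held 21 to 2807 and 9 to 361 cells, with median depths per library of 12537 to 25183 and 11542 to 28848 UMIs per cell. The smallest were those of E16.5 MOF cKO skin, with 21 and 22 basal and 9 and 13 suprabasal cells. The 7 basal markers summed to 690 to 4477 CPM in the basal gate and 145 to 6947 in the suprabasal gate, so they did not set the gates apart, while the 8 suprabasal markers summed to 5390 to 21890 CPM in the suprabasal gate against 775 to 4284 in the basal gate. In the E17.5 control 48.7% of basal-gate cells had at least as many collagen as keratin UMIs, against 10.4% in the QPC cKO library, and the share was 33.1% in E16.5 control replicate 1. The 2 E17.5 libraries shared 1702 cell barcodes, while no other pair of libraries shared over 67, and 7 of them were kept in both. Kat8 stood at 14.9 to 16.4 CPM in the E16.5 control basal gate and at 4.51 and 8.31 in MOF cKO, where only 2 and 3 UMIs were counted, but at 13.4 and 10.3 in E15.5 MOF cKO replicates 5 and 6 against 13 and 13.7 in controls. It was also lower in the fibroblast gate of MOF cKO libraries, at 2.69 and 5.19 against 10.2 and 8.36 at E16.5 and at 6.81 and 6.05 against 9.38 and 9.74 at E15.5, although the driver is an epithelial promoter. Uqcrq stood at 45.7 CPM in the QPC cKO basal gate against 103 in the control. Whether the sequenced 3' ends lie inside the deleted exons is not given in the sources used here. The library chemistry differed between the 3 stages, and E16.5 also had the shorter gene list, so differences in level between stages cannot be told apart from these.

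In the control skin of E15.5 and E16.5, to which the values of this comparison are limited, most members stood higher in suprabasal than in basal cells. The plot of levels by library gives every value. Stfa1 was at 142 and 132 CPM in the 2 E15.5 control basal gates and at 475 and 518 in the suprabasal gates, and at 167 and 481 against 607 and 1427 at E16.5. Stfa3 was at 784 and 554 against 2399 and 2466 at E15.5, and at 535 and 1423 against 2014 and 4083 at E16.5. Both stefins were therefore higher above the basal layer in each of the 4 control libraries, by a fitted log2 fold change of 1.91 ± 0.10 (SE) for Stfa1 and 1.92 ± 0.12 for Stfa3. Serpinb5 showed the same order with a smaller step, from 198 to 257 CPM in basal and from 366 to 555 in suprabasal gates (log2 fold change 1.12 ± 0.16). In E16.5 control replicate 1, whose basal gate held many collagen-rich cells, the basal values were over 1.5 times as high where keratin UMIs had to exceed collagen UMIs, to 279 CPM for Stfa1, 893 for Stfa3 and 326 for Serpinb5, against 626, 2074 and 568 in its suprabasal gate under the same limit.
Serpinb3b and Serpinb3a were many times higher in the suprabasal gate. Serpinb3b was at 0.596 to 13 CPM in the E15.5 and E16.5 control basal gates and at 68.3 to 217 in the suprabasal gates (1060 and 2479 UMIs, log2 fold change 4.72 ± 0.34), and it was detected in 19.7% to 35.4% of the suprabasal cells of these controls after each cell was thinned to 3000 UMIs. Serpinb3a was at 0 to 0.295 in the basal and 2.01 to 8.23 in the suprabasal gates. Csta3 and Serpinb6c were scarce in all controls, at no more than 6.03 and 10.9 CPM in any E15.5 or E16.5 control gate. Serpinb2 had no common order. In the E15.5 controls it was at 29.6 and 32.7 CPM in basal and 16.2 and 14.2 in suprabasal cells, and in the E16.5 controls at 0.894 and 16.2 against 4.02 and 23.0 (log2 fold change over all 4 libraries -0.61 ± 0.31).

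**Figure D1:**
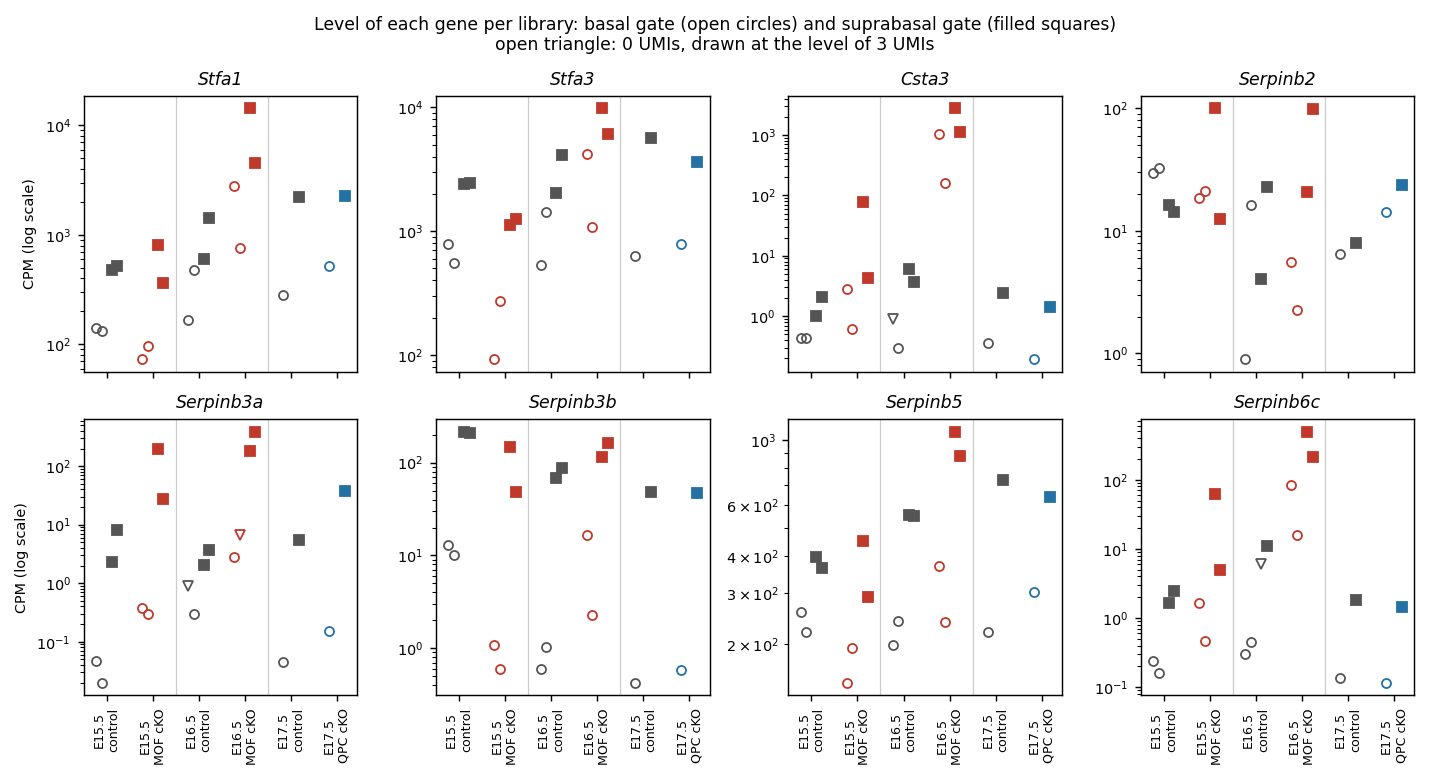
CPM (log axis) of the 8 members by stage and genotype, 1 point per library and gate, with open circles for the basal gate, filled squares for the suprabasal gate and open triangles for libraries with 0 UMIs, drawn at the level of 3 UMIs. The 2 E16.5 MOF cKO libraries stand at 1110 and 2772 for Csta3 in the suprabasal gate, where the 2 controls of that stage stand at 3.63 and 6.03.

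At E15.5 the abundant members stood lower in MOF cKO basal cells. Stfa3 was at 92.2 and 272 CPM in the MOF cKO basal gates (replicates 5 and 6) against 784 and 554 in controls, a fitted log2 fold change of -1.80 ± 0.45 (SE). Stfa1 was at 72.9 and 97.5 against 142 and 132 (log2 fold change -0.55 ± 0.10), and Serpinb5 at 147 and 193 against 257 and 220 (-0.35 ± 0.12). Serpinb3b showed the widest gap of the lower members, at 1.07 and 0.603 against 13 and 10.0 (-3.65 ± 0.45). Serpinb2 was at 18.6 and 21.2 against 29.6 and 32.7 (-0.50 ± 0.14). For these 5 members both MOF cKO libraries lay below both controls, a placing that 32.9% of the 14364 genes tested in this gate showed.
The other 3 members, which control basal cells barely held, lay above both controls in both MOF cKO libraries, as did 17.7% of genes. Csta3 was at 2.84 and 0.603 CPM against 0.429 and 0.436, and Serpinb6c at 1.66 and 0.469 against 0.238 and 0.159. Serpinb3a was counted 16 times in the MOF cKO basal gates and 3 times in the controls, a ratio of pooled CPM of 10.2 with a counting interval of 2.91 to 54.4. The share of basal cells with a Stfa3 UMI after thinning was 17.8% and 36.2% in MOF cKO against 62.7% and 54.0% in controls, and that with Stfa1 14.7% and 20.3% against 25.9% and 25.5%. Together the 8 genes made up 0.0337% and 0.0586% of basal UMIs in MOF cKO replicates 5 and 6, and 0.123% and 0.0949% in controls. Marker sums also differed in this gate. The 7 basal markers summed to 1197 and 2876 CPM in MOF cKO replicates 5 and 6 against 3972 and 3797 in controls, the 8 suprabasal markers to 778 and 1042 against 1428 and 1379, and the 6 hair follicle markers to 136 and 142 against 212 and 187, with every gene of these lists detected in each library. The 6 periderm markers summed to 77.9 and 10.6 against 18.4 and 14.9. Their part in the members' levels was not tested. Of the 14364 genes tested in this gate 0% (0 genes) passed the edgeR quasi-likelihood test at a Benjamini-Hochberg adjusted p under 0.05, while 1309 genes had an unadjusted p under 0.05 and DESeq2 called 120.

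In E15.5 suprabasal cells the scarce members were abundant in MOF cKO replicate 5 in particular. Serpinb3a was at 197 CPM in replicate 5 and 27.6 in replicate 6, against 2.31 and 8.23 in controls (log2 fold change 4.45 ± 1.11 SE). After thinning, 29.4% of suprabasal cells of replicate 5 held a Serpinb3a UMI (exact 95% binomial interval 23.0% to 36.5%), 5.71% of replicate 6, and 0.680% and 1.39% of controls, while in the fibroblast gate of the 10 libraries, at a median depth of 9400 to 19809 UMIs per cell, 0% to 0.182% did. Csta3 was at 76.5 and 4.35 against 0.992 and 2.06 (4.78 ± 1.44), and Serpinb6c at 62.6 and 5.0 against 1.65 and 2.42 (4.18 ± 1.27). Without replicate 5, the fitted log2 fold changes of Serpinb3a, Csta3 and Serpinb6c were 2.09, 1.29 and 1.14. Serpinb2 was at 100 in replicate 5 and 12.6 in replicate 6, against 16.2 and 14.2 in controls, and its log2 fold change of 2.13 ± 0.94 became -0.32 without replicate 5.
The abundant stefins parted in these cells. Stfa3 was at 1130 and 1254 CPM in MOF cKO against 2399 and 2466 in controls (log2 fold change -0.93 ± 0.22), while Stfa1 was at 814 and 367 against 475 and 518, with MOF cKO replicates on either side of the controls (0.42 ± 0.45). Serpinb3b was at 149 and 48.3 against 217 and 208 (-0.92 ± 0.56), so that the closely related Serpinb3a and Serpinb3b pointed in opposite directions. Serpinb5 did not separate the groups, at 451 and 290 against 397 and 366. Of the 8 members 3 lay above and 2 below both controls, beside 16.7% and 21.8% of the 10819 genes tested. None of those genes passed the edgeR test (0%), while 836 had an unadjusted p under 0.05 and DESeq2 called 49. Stress keratins (Krt6a, Krt6b, Krt16 and Krt17) summed to 4429 CPM in replicate 5, 592 in replicate 6 and 541 and 1165 in controls. The 7 basal markers summed to 430 and 1651 in replicates 5 and 6 against 3960 and 2539 in controls, the 6 immune markers to 61.0 and 43.7 against 27.4 and 25.8, and the 6 fibroblast markers to 541 and 584 against 447 and 307. Ptprc was at 0 in control replicate 2, and the other genes of these 3 lists were detected in each library. The part of these genes in the members' levels was not tested.

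**Figure D2:**
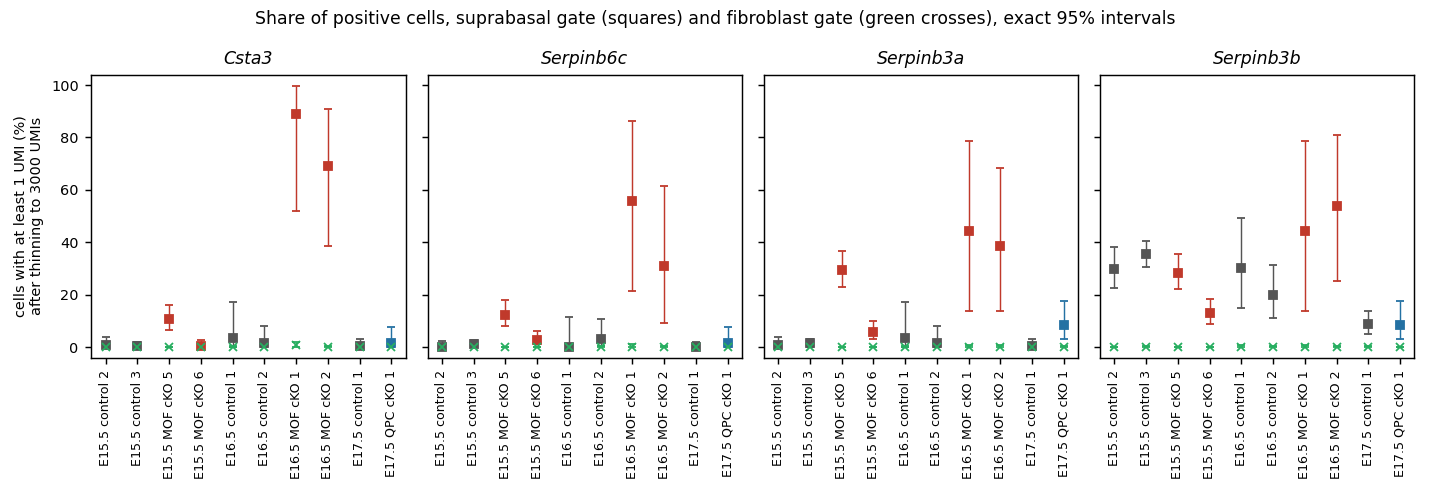
Percent of cells with at least 1 UMI of Csta3, Serpinb6c, Serpinb3a and Serpinb3b after thinning to 3000 UMIs per cell, in the suprabasal gate (squares) and the fibroblast gate (green crosses) of each library, with exact 95% binomial intervals that cover counting error only. In the suprabasal gate at E16.5, 88.9% and 69.2% of MOF cKO cells held Csta3, and 3.33% and 1.52% of control cells.

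At E16.5 all members but Serpinb2 were higher in both MOF cKO suprabasal gates than in both controls. In basal cells the members were mixed, with Stfa1, Csta3, Serpinb3b and Serpinb6c above both controls and Stfa3, Serpinb2, Serpinb3a and Serpinb5 overlapping them. All of these values rest on very few cells. Csta3 showed the widest gap. In the suprabasal gate it was at 2772 and 1110 CPM in MOF cKO (534 and 324 UMIs) against 6.03 and 3.63 in controls (3 UMIs each), with a mean of 1941 ± 1175 (SD, n = 2) against 4.83 ± 1.70 and a fitted log2 fold change of 9.18 ± 0.86 (SE). It was detected in 88.9% of the 9 and 69.2% of the 13 suprabasal cells after thinning, at a mean of 66.8 and 36.0 UMIs per positive cell before thinning, whereas each positive control cell held 1.0. In the basal gate Csta3 was counted 374 and 71 times in MOF cKO and 0 and 2 times in controls, a pooled ratio of 2805 with a counting interval of 772 to 23235. Csta3 was thus carried by most suprabasal cells of both MOF cKO libraries, and by 42.9% and 18.2% of their basal cells.
Stfa1 reached 14385 and 4563 CPM in MOF cKO suprabasal cells against 607 and 1427 in controls (log2 fold change 3.76 ± 0.85), and 2796 and 756 against 167 and 481 in basal cells (2.92 ± 0.83). Stfa1 was already detected in 73.3% and 77.3% of control suprabasal cells, so the gap lay mainly in the UMIs per positive cell, at a mean of 308 and 102 in MOF cKO against 11.2 and 20.3 in controls. Stfa3 was at 9843 and 6136 against 2014 and 4083 in suprabasal cells (1.90 ± 0.63). In basal cells it was at 4190 and 1083 against 535 and 1423, and these ranges overlapped. Its basal log2 fold change of 1.90 ± 0.80 was 0.51 without MOF cKO replicate 1. With keratin above collagen UMIs the 2 controls stood at 279 and 508 for Stfa1 and at 893 and 1502 for Stfa3 in basal cells, and the MOF cKO values stayed as given.

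Among the serpins at E16.5, Serpinb3a and Serpinb6c, which control cells hardly held, stood furthest apart. Serpinb3a was at 182 and 391 CPM in MOF cKO suprabasal cells against 2.01 and 3.63 (35 and 114 UMIs against 1 and 3; log2 fold change 6.90 ± 0.60). In basal cells 1 UMI in MOF cKO and 2 in controls were too few to compare. Serpinb6c was at 498 and 212 against 0 and 10.9 in suprabasal cells (6.25 ± 0.97), and in basal cells at 83.1 and 15.8 against 0.298 and 0.442 (7.28 ± 0.99), where 37 UMIs faced 4. Serpinb3b was at 114 and 161 against 68.3 and 88.4 in suprabasal cells (1.28 ± 0.39), so Serpinb3a and Serpinb3b pointed the same way at this stage. Serpinb5 was at 1069 and 884 against 555 and 550 (1.34 ± 0.41). Serpinb2 was at 20.8 and 99.4 against 4.02 and 23.0 in suprabasal cells, overlapping the controls and too scarce to be fitted, and in basal cells 3 UMIs in MOF cKO faced 113 in controls, 110 of them in control replicate 2.
Together the members made up 2.89% and 1.36% of suprabasal UMIs in MOF cKO and 0.326% and 0.619% in controls. In the suprabasal gate 7 of the 8 members lay above both controls in both MOF cKO libraries and 0 below, beside 16.1% and 49.6% of the 4266 genes tested. In the basal gate 4 lay above both controls and 0 below, beside 10.6% and 51.5% of 9454 genes. Serpinb3b, 1 of the 4, was too scarce to be among those genes, with 7 UMIs in MOF cKO and 9 in controls. These contrasts chose the members, and nothing is read from the counts.
The gates themselves differed. The 4 stress keratins summed to 78227 and 41170 CPM in the MOF cKO suprabasal gates, with all 4 detected, against 1644 and 1156 in controls, where Krt6b was at 0. The 5 granular markers (Lor, Ivl, Flg, Hrnr and Lce1a1) summed to 555 and 209 against 46841 and 26433, with Hrnr at 0 in MOF cKO replicate 1 and Flg and Lce1a1 at 0 in replicate 2. In the basal gates the stress keratins summed to 15586 and 5363 against 955 and 1120, the 7 basal markers to 690 and 1249 against 3041 and 4477, and the 6 fibroblast markers to 454 and 627 against 3172 and 1360, with every gene of these lists detected in each library. The 8 suprabasal markers, at 4284 and 1489 against 775 and 2112, overlapped. The part of these genes in the members' levels was not tested. The 6 immune markers (Ptprc, Tyrobp, Fcer1g, Laptm5, Cd52 and Coro1a) summed to 57.1 and 51.4 CPM in the MOF cKO suprabasal gates, with Ptprc at 0 in both, against 4.02 and 16.9 in controls, and to 63.7 and 354 in the basal gates against 136 and 18.1. Their part was not tested. All 8 neutrophil markers were at 0 in every E16.5 MOF cKO keratinocyte gate.

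**Figure D3:**
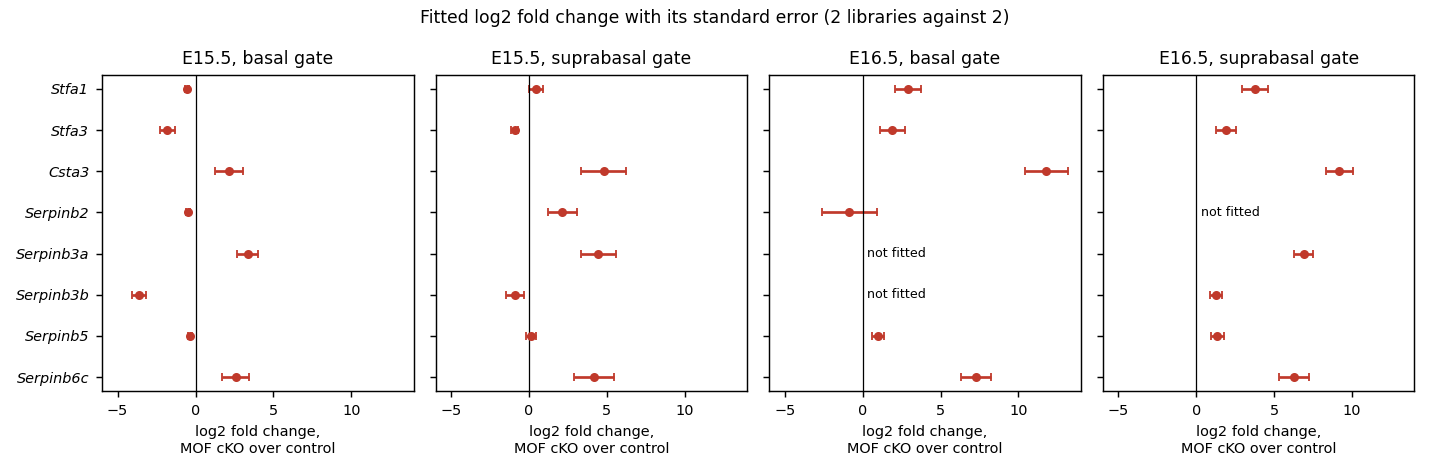
Fitted log2 fold change of each member, MOF cKO over control, with its standard error, in each gate at E15.5 and E16.5 (2 libraries against 2). At E16.5 the suprabasal points run from 1.28 for Serpinb3b to 9.18 for Csta3, whereas at E15.5 the basal points lie on both sides of 0.

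At E17.5, with 1 library per genotype, there was no replicate check and no test. In suprabasal cells the stefins showed no common shift in QPC cKO skin. Stfa1 was at 2248 CPM in QPC cKO and 2242 in control, a ratio of 1.0 with an exact Poisson interval of 0.969 to 1.04, whereas Stfa3 was at 3624 against 5680 (0.638, interval 0.622 to 0.654). Serpinb5 was at 638 against 731 (0.874, 0.820 to 0.930) and Serpinb3b at 46.9 against 47.9 (0.979, 0.766 to 1.24). Intervals here cover counting error only and not the spread between embryos.
Serpinb3a, Csta3 and Serpinb6c did not move together here. Serpinb3a was at 37.4 CPM in QPC cKO against 5.42 in control (78 and 27 UMIs, ratio 6.90, interval 4.40 to 11.1), and it was found in 8.45% of thinned suprabasal cells against 0.541%. Csta3 was at 1.44 against 2.41 and Serpinb6c at 1.44 against 1.81, from 3 to 12 UMIs in any library. Serpinb2 was at 23.5 against 8.02 (2.92, 1.89 to 4.56). When cell barcodes that the 2 libraries share were left out, the log2 ratio of Serpinb3a was 1.80 in place of 2.58. That step took out 1 of the 72 QPC cKO and 21 of the 190 control suprabasal cells, so the ratio moved with few cells. Its interval does not cover uneven counts between cells. Stress keratins summed to 5324 in QPC cKO and 3046 in control. Krt17 made up most of both sums, at 4495 against 2665. Krt16 was at 715 against 377 and Krt6a at 91.9 against 3.41. The part of these keratins in the members' ratios was not tested.
In basal cells Stfa1 was at 515 CPM in QPC cKO against 283 (ratio 1.82, 1.78 to 1.86), Stfa3 at 793 against 626 (1.27, 1.25 to 1.29), Serpinb5 at 302 against 221 (1.37, 1.33 to 1.41) and Serpinb2 at 14.2 against 6.48 (2.18, 1.89 to 2.52). These ratios moved with the collagen-rich cells of the gate. Where keratin UMIs had to exceed collagen UMIs, Stfa1 was at 567 against 529, Stfa3 at 872 against 1173 and Serpinb5 at 333 against 422, so the last 2 changed direction, and Serpinb2 was at 15.6 against 12.5. Of the 4 members with at least 100 UMIs in the basal gate, Serpinb2 lay more than 2-fold higher, beside 1.3% of 12851 genes higher and 11.5% lower. None of the 4 such members in the suprabasal gate was past 2-fold, beside 0.355% of 5911 genes higher and 1.02% lower.

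**Figure D4:**
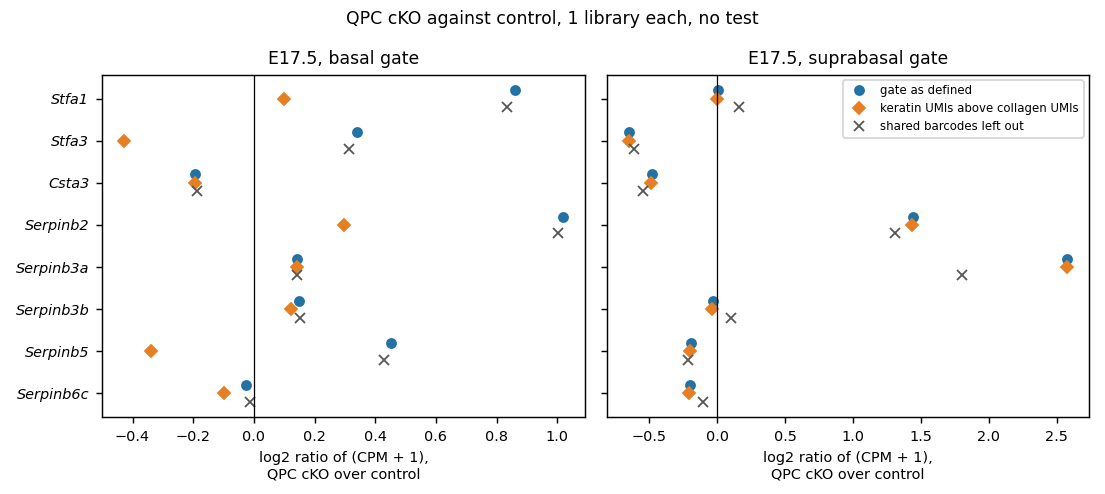
Log2 ratio of CPM + 1, QPC cKO over control, for each member and gate, in the gate as defined, in the gate that required keratin above collagen UMIs, and without shared barcodes. In the basal gate Stfa3 and Serpinb5 move from the right to the left of 0, at -0.43 and -0.34, once collagen-rich cells are left out.

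The relatives of the members were measured in 5 lists: 17 other stefins and cystatins, 23 other clade B serpins, 12 cysteine proteases, 17 serine and aspartic proteases, and 20 other protease inhibitors. Between the layers of control skin, all 8 stefins and cystatins that could be fitted were higher in suprabasal cells by the edgeR quasi-likelihood test (median log2 fold change 1.88, against -0.06 over all genes), beside 31.6% of the 12105 genes tested called in either direction. Cst6, the secreted cystatin M/E, was at 5.26 ± 2.34 (SD, n = 4) CPM in basal and 114 ± 77.8 in suprabasal gates (log2 fold change 3.97 ± 0.42 SE, edgeR adjusted p = 2.6e-04). Stfa2, Csta1 and Cstdc5 followed, with log2 fold changes of 3.17 (edgeR adjusted p = 0.00141), 2.59 (0.00729) and 2.01 (1.1e-05).
Among 9 clade B serpins fitted, Serpinb12 (log2 fold change 7.07, edgeR adjusted p = 5.8e-07) and Serpinb3c (4.02, adjusted p = 1.7e-06) were higher in suprabasal cells, and Serpinb1b (-2.58, 0.0047), Serpinb6b (-1.98, 0.00365) and Serpinb6a (-1.75, 8.8e-05) were lower. Serpinb12 went from 1.68 ± 0.91 to 260 ± 117 CPM. Of 10 cysteine proteases 2 were called, a share below that of all genes. Ctsc (cathepsin C), at 23.5 ± 3.85 in basal and 254 ± 79.3 in suprabasal cells, and Ctsa were higher. Ctsa encodes cathepsin A, a serine carboxypeptidase that the list holds beside the cysteine cathepsins. Of 9 serine and aspartic proteases 4 were higher, Tmprss4, Prss8, Plau and Ctsd (cathepsin D), and Plat (tissue plasminogen activator) and Htra1 were lower. The basal gate held collagen-rich cells, 33.1% in E16.5 control replicate 1, and their part in these layer differences was not tested. Of 13 other inhibitors 5 were higher, among them Serpina12 (1 and 51 UMIs), Wfdc5, Spink5 (which inhibits kallikreins) and Spint1, and 5 lower, among them Wfdc2, Serpine2 and Timp3.

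In MOF cKO skin at E15.5 none of the 55 relatives fitted in the basal gate and none of the 40 in the suprabasal gate passed the edgeR test. In each gate 8 had an unadjusted p under 0.05, and DESeq2 called 1 stefin or cystatin lower and 1 other inhibitor higher in basal cells and 1 other inhibitor higher in suprabasal cells. Without a filter on low counts edgeR called 0 of 69 relatives in basal cells and 11 of 68 in suprabasal cells, all higher (3 stefins and cystatins, 1 cysteine protease, 1 serine or aspartic protease and 6 other inhibitors), beside 2.27% of genes higher. Without the mosaic MOF cKO replicate 6, with the lone MOF cKO library assumed to vary like the controls, edgeR called 31 of 56 relatives in basal cells (17 higher and 14 lower), beside 22.6% of all genes higher and 26.8% lower, and 19 of 49 in suprabasal cells (18 higher and 1 lower), beside 9.06% and 6.43%. In basal cells these were 2 stefins and cystatins higher and 2 lower, 1 clade B serpin higher and 6 lower, 2 cysteine proteases higher and 5 lower, 5 serine and aspartic proteases higher, and 7 other inhibitors higher and 1 lower. In suprabasal cells they were 5 stefins and cystatins, 1 clade B serpin, 3 cysteine proteases, 2 serine and aspartic proteases and 7 other inhibitors higher, and 1 cysteine protease lower. Without replicate 5 it called 8 of 56 relatives in basal cells (3 higher and 5 lower), beside 2.4% of genes higher and 2.57% lower, and 0 of 44 in suprabasal cells. In E16.5 suprabasal cells 3 of the 7 other stefins and cystatins fitted rose, beside 4.03% of all genes called, with a median log2 fold change over the 7 of 3.01 against -0.05 over all genes tested. Cstdc5 was at 27760 ± 14335 (SD, n = 2) CPM in MOF cKO against 2577 ± 1552 in control (log2 fold change 3.95 ± 0.85 SE, edgeR adjusted p = 0.0498), Stfa2 at 332 ± 184 against 20.2 ± 14.3 (4.47 ± 0.72, edgeR adjusted p = 0.0229), and Cstdc6 at 275 ± 243 against 26.2 ± 11.3 (3.97 ± 0.81, edgeR adjusted p = 0.0429). Ctsb, which encodes cathepsin B, a target of stefins, rose among 7 cysteine proteases, from 168 ± 41.7 to 441 ± 66.5 (1.92 ± 0.41, edgeR adjusted p = 0.0498). Slpi, the secretory leukocyte protease inhibitor, rose among 7 other inhibitors (8.57 ± 1.60, edgeR adjusted p = 0.0362), on 108 UMIs against 1.
None of 5 clade B serpins (median log2 fold change -0.89, 3 under 0.05 before adjustment) and none of 6 serine and aspartic proteases (2 under 0.05) passed the edgeR test there, nor did DESeq2 call any. Without MOF cKO replicate 1, all 5 calls were lost, and with the replicate number as a block 1 stefin and Slpi remained. In the basal gate none of 37 relatives fitted passed the edgeR test, beside 0.243% of all genes, while 13 had an unadjusted p under 0.05. DESeq2 called 6 stefins and cystatins higher there, and its count over all genes of this gate is given with the settings below.
At E17.5, among relatives with at least 100 UMIs in the QPC cKO or the control suprabasal gate, no stefin or cystatin, clade B serpin, cysteine protease or other inhibitor was past 2-fold. Cma1, a mast cell protease, stood at 121 CPM against 14.8. It was 1 of 3 mast cell markers measured there, and all 3 were past 2-fold higher (Cpa3 81.9 against 7.62, Mcpt4 64.6 against 2.61). The part of mast cells in this was not tested. In the basal gate Serpinb7 (43.4 CPM in QPC cKO against 13.4), Serpinb11 (10.3 against 3.07) and Spint2 (219.8 against 104.5) were past 2-fold higher, beside 1.3% of all genes. There 2 of 9 stefins and cystatins, 1 of 9 clade B serpins and 4 of 12 genes of the cysteine protease list were past 2-fold lower. So were 3 of 9 serine and aspartic proteases and 4 of 11 other inhibitors, beside 11.5% of all genes. Of the markers, 5 of 6 for fibroblasts, 5 of 6 for immune cells, 4 of 5 for mast cells and 1 of 3 for periderm were lower. Those past 2-fold higher included 4 of 6 hair follicle markers, 2 of 3 periderm markers and 2 of 2 stress keratins. In cells with more keratin than collagen UMIs, a limit chosen after seeing the data, no relative was past 2-fold higher (Serpinb7 47.8 CPM against 25.5, Serpinb11 11.4 against 5.82, Spint2 241 against 198), and 2 of 7, 1 of 9, 0 of 10, 2 of 8 and 1 of 8 were past 2-fold lower in the same order of lists, beside 0.881% of the 11236 genes of that gate higher and 3.86% lower. Of the markers 0 of 5 for fibroblasts, 4 of 5 for mast cells, 6 of 6 for immune cells and 1 of 3 for periderm were lower there. Past 2-fold higher were 1 of 6 hair follicle markers, 1 of 3 periderm markers and 0 of 2 stress keratins. The part of the cells that carry these markers was not tested.

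Outside the keratinocyte gates the members were scarce in fibroblasts, and Stfa1 varied widely between libraries in immune cells. In the fibroblast gate (at least 20 UMIs of Col1a1, Col1a2 and Col3a1, few keratin UMIs and no Ptprc) Stfa3 was at 1.12 to 58.0 CPM in the 10 libraries and Stfa1 at 0.907 to 24.2, far below their keratinocyte levels. Csta3 was at 0 in the 5 control libraries and at 2.41 and 0.382 in E16.5 MOF cKO. At E15.5 Stfa3 was at 1.12 and 2.94 CPM in MOF cKO fibroblasts against 11.4 and 15.9 in controls, Stfa1 at 0.907 and 1.18 against 2.05 and 3.29, and Serpinb5 at 0.680 and 1.20 against 2.03 and 2.65, with fitted log2 fold changes of -2.77 ± 0.41 (SE), -1.38 ± 0.27 and -1.34 ± 0.29, the direction they had in the basal gate of these libraries. Over all genes of this gate edgeR called 0% of 16228 at E15.5 (0 genes, with 2472 under 0.05 before adjustment and 469 called by DESeq2) and 4.02% of 12777 at E16.5.
Of 39 relatives fitted in the E16.5 fibroblast gate, 5 passed the edgeR test, 3 of 11 cysteine proteases and 2 of 11 other inhibitors, all of them higher in MOF cKO. None of 5 stefins and cystatins, 6 clade B serpins and 6 serine and aspartic proteases passed it, with 0, 4 and 2 under 0.05 before adjustment and 1, 0 and 0 called higher by DESeq2. Serping1, the C1 inhibitor, rose from 27.7 ± 0.60 (SD, n = 2) to 107 ± 0.54 CPM (log2 fold change 2.06 ± 0.14 SE, edgeR adjusted p = 0.0215), and Serpina3n from 0.128 ± 0.0053 to 115 ± 122 (9.82 ± 1.58, edgeR adjusted p = 0.0418), on 3 UMIs in controls. The cysteine proteases Ctsc (log2 fold change 1.58), Ctss (3.55) and Lgmn (1.76) also rose, with edgeR adjusted p of 0.0288, 0.0351 and 0.0254. The 6 immune markers summed to 80.3 and 107 CPM in MOF cKO against 8.67 and 19.5 in controls of this gate, with 5 of the 6 detected in each library and Ptprc at 0 by the gate's own limit, and their part in these differences was not tested. Without control replicate 2 none of the 5 was called.
In the immune gate Stfa1 was at 4.67 to 821 CPM, and Csta3 reached 33.8 in the E17.5 control and 18.6 in QPC cKO. The neutrophil markers Ly6g, Ngp, Camp, Ltf, Mpo, Retnlg, Csf3r and Mmp8 summed to 10.2 to 1086 CPM in that gate and to no more than 3.26 in any keratinocyte gate. Their part in the members' levels there was not tested.

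The members' own patterns fell into a few shapes over the 20 sums of 10 libraries and 2 gates, compared by Pearson's r of log2(CPM + 1) as a description, since the sums share libraries and depth. Csta3 and Serpinb6c, on different chromosomes, were the most alike of all pairs (r = 0.95). Stfa1 and Stfa3 had r = 0.92, and Serpinb5 had r = 0.90 with each of them. The closely related Serpinb3a and Serpinb3b reached 0.73, and Serpinb2 stood apart, with r between 0.12 and 0.58 to the others. The genes compared numbered 10761, the members included, and the closest non-members were taken. Those of Csta3 were Sprr2d, a small proline-rich protein of the cornified envelope (0.97), and Sh2d5 (0.96). Those of Serpinb6c were Dnase1l3 and Sprr2d (0.97 each). Stfa1 was nearest to Dapk2 and Sfn (0.94 each), Stfa3 to Lgals7 (0.96) and Lad1 (0.92), and Serpinb5 to Trim29 (0.96) and Zbtb7b (0.95). Serpinb3a was nearest to Gsdmc (0.94) and Arl8b (0.92), Serpinb3b to Stx19 (0.95) and Bspry (0.94), and Serpinb2 to Tmem170 (0.69) and C2cd4b (0.67).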

How the data were processed

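The deposited values were raw counts of UMIs for each gene in each called cell barcode, which the authors made with Cell Ranger on mm10. The submitters' processing notes name versions 1.3.1 and 6.1.2. The E16.5 libraries used the 3' v2 chemistry and 27998 listed genes, and those of the other stages 32285 genes and later chemistries, which were not the same at E15.5 as at E17.5. Csta3 is listed at E16.5 under an older symbol and was matched by its Ensembl ID. The libraries held 13609345 to 203392303 UMIs in all barcodes.

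Cells with over 1000 and under 6000 genes and under 10% mt- UMIs were kept, with no doublet caller. UMIs were summed per library and gate, so libraries were the replicates. Genes were tested with edgeR 4.0.16 (R 4.3.3), with filterByExpr, TMM and the quasi-likelihood test, at a Benjamini-Hochberg adjusted p under 0.05 over all genes tested, and the layer comparison had the library as a term. The standard error beside a fitted log2 fold change is the absolute fold change over the square root of the quasi-likelihood F statistic. For the members, which were chosen on these values, it describes the fit and is not a test. E15.5 replicates are separate embryos. The labels do not say so for E16.5, where p-values then measure the spread between these libraries only. Positive shares were taken after thinning each cell to 3000 UMIs, which left out 26 basal and 13 suprabasal cells. At E17.5, ratios carry exact Poisson intervals and no test. Alternatives were RLE and library size scaling, DESeq2 1.42.0, no filter on low counts, other gates, a replicate block and leaving out each replicate.

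All members and, from each list of relatives, at most 4 called genes per direction with the largest absolute log2 fold change were named. Where the text counts further calls, they are given as a number. A gene that the rule would name is not reported here. The scripts were tested on simulated data. The members, the lists and the tests were chosen with earlier results of these data known. Intervals and shares cover counting error only.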

Additional observations from a re-analysis of the deposited data

Results flagged for a closer look

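For 2 members in basal cells (Stfa1 and Serpinb3b) and 2 in suprabasal cells (Stfa3 and Serpinb3b) the 2 MOF cKO libraries lay on opposite sides of both controls at the 2 stages, as did 5.35% of 9357 and 5.3% of 4188 genes tested at both stages. Serpinb3b in basal cells was too scarce to be among those genes, and the members were chosen on these values. The difference between the stages was not tested, and stage, chemistry and gene list changed together. In basal cells the ratio of group means of CPM, MOF cKO over control, was 5.47 for Stfa1 at E16.5 and 0.621 at E15.5. For Serpinb3b in basal cells it was 11.6 at E16.5, on 7 UMIs in MOF cKO and 9 in controls, and 0.0727 at E15.5. In suprabasal cells it was 2.62 at E16.5 and 0.490 at E15.5 for Stfa3, and 1.76 and 0.464 for Serpinb3b.

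Cells between the gates, with at least 10 and under 20 UMIs of Krt1 and Krt10, entered no comparison. At E16.5 there were 1 and 4 such cells in MOF cKO and 4 and 21 in controls. The lower of the 2 MOF cKO libraries stood at 1699 CPM for Stfa1, where the higher control stood at 528. For Stfa3 these values were 3397 and 1967, for Serpinb5 389 and 267, and for Csta3 637 and 0.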

How the results depend on the processing

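The number of genes called depended on the settings. At E15.5 edgeR called 0 genes in each gate. Without a filter on low counts it called 2 in basal, 525 in suprabasal and 366 in fibroblast gates, DESeq2 called 120, 49 and 469, and leaving out a replicate gave 0 to 7518, 0 to 1762 and 0 to 297. At E16.5 the basal count of 23 became 991 with no filter, 307 with DESeq2, 310 with keratin above collagen, 765 with gate limits per 10000 UMIs, and 0 to 434 without a replicate. The suprabasal count of 172 became 305 with library size alone (126 higher and 179 lower, against 143 and 29), 636 with no filter, 110 with limits per 10000 UMIs, and 30 to 247 without a replicate. The fibroblast count of 513 became 870 with library size alone (397 higher and 473 lower, against 300 and 213), 1719 with no filter, 948 with DESeq2, 788 with limits per 10000 UMIs, and 0 to 270 without a replicate. Scaling by library size shifted the median of all genes at E16.5 to -0.64 (log2) in basal and -0.58 in suprabasal cells. With the replicate block the 3 E16.5 counts were 52, 88 and 192. The deviations of same-numbered libraries had correlations over genes of -0.081, -0.035 and -0.024. With 2 libraries per genotype these cannot decide whether the numbers are a pairing. The study describes 2 pairs of samples at this stage and littermate controls throughout, and the labels do not say which libraries were paired. The 3831 genes called between layers became 1195 without the library term and 1797 to 4118 without a replicate. Genes past 2-fold at E17.5 numbered 1646 in basal cells, 533 with keratin above collagen and 240 with limits per 10000 UMIs (both added after seeing the data), and 81 in suprabasal cells, 298 with at least 30 UMIs in place of 100.

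Of the members' log2 fold changes under the alternatives, 413 stayed within their error, 49 moved past it and 1 was reversed. The error was 1 standard error, or 2 in the comparison of layers. In all, 8 changed sign. Only 1 of these had a reported value larger than its error, Serpinb2 in E15.5 suprabasal cells, at -0.32 to 3.0 with a replicate left out, the lowest without MOF cKO replicate 5. Without that replicate Stfa1 and Serpinb5 there went to -0.50 and -0.46, and with library size alone Serpinb5 went to -0.04. The other changes of sign were in E16.5 fibroblasts, where Stfa1 went from 0.75 to -0.00068 without control replicate 1 and to -0.88 without MOF cKO replicate 1, and Stfa3 from -0.34 to 0.92 without control replicate 2 and to 0.40 without MOF cKO replicate 2. Of the E17.5 log2 ratios 65 stayed within their counting interval, 11 moved out of it and 4 were reversed. In all, 9 changed sign, 4 of them from an interval that left out 0. Those 4 were all in basal cells: Stfa3, at -0.43 with keratin above collagen and -0.51 with limits per 10000 UMIs, and Serpinb5, at -0.34 and -0.39. Of the differences in share of positive cells, 29 stayed within their error when cells were not thinned, 18 moved past it and 1 was reversed. The share of basal cells with Stfa3 at E17.5 was higher in QPC cKO after thinning and lower by 2.09 percentage points before it (-2.09). The cause of these changes was not tested. Csta3, Serpinb3a and Serpinb6c had at most 3 UMIs in any E16.5 control basal gate, so the size of their ratios there is known only within wide counting intervals.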
